A study of Mus musculus with 13 samples.

Results

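The 48 genes described here encode the machinery of mitosis, and many of them are known targets of the transcription factor FOXM1. They were taken by name from a list that holds Foxm1 itself, the mitotic cyclins and CDK1 with its activators, the mitotic kinases, the spindle checkpoint, the kinetochore, the spindle, cytokinesis and the condensed chromosome. All 48 had a line among the 19838 genes counted, of which 17053 had a read in any library. Levels were read in 13 libraries from old mice with and without a FOXM1 transgene.

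A cell that divides switches on these genes late in its cycle, in G2 phase, and silences them again after division. FOXM1 is recruited to their promoters through the MuvB complex, which binds a short sequence called the cell cycle genes homology region (CHR), often beside CCAAT boxes bound by NF-Y. In resting cells a repressive form of the same complex, DREAM, holds these genes off. In the wall of an adult artery and in adult muscle nearly all cells are known to be at rest.

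The dNdK mice had the genotype GFP-FOXM1dNdKtg/+ Rosa26-rtTAtg/+, and the Rosa26 mice GFP-FOXM1dNdK-/- Rosa26-rtTAtg/+, so the doxycycline-dependent transactivator rtTA was present in all animals and the GFP-tagged FOXM1 in the dNdK mice alone. The dNdK form of FOXM1 is known as a version without its N-terminal inhibitory region and without a degradation signal. All mice were of a mixed FVBxC57BL/6 strain and 88 weeks old, and the libraries came from aorta (2 dNdK, 4 Rosa26) and gastrocnemius muscle (3 dNdK, 4 Rosa26). The labels give no doxycycline treatment, no promoter of the transgene, no sex and no sequencing run, and they do not say whether the Foxm1 amplicon also reads the transgene.

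Each library held 3919526 to 13683952 gene reads, the fewest in aorta Rosa26 4. The aorta libraries were of mixed make-up. The summed level of 8 brown fat genes was 15888 to 20829 rpm (reads per 1000000 gene reads) in all 6, against 1770 to 3716 rpm in muscle. The 8 smooth muscle genes, Des among them, summed to 342 to 664 rpm in aorta and 4711 to 6275 rpm in muscle. Of these genes Tagln stood at or near 0 in every library, where an amplicon that reads poorly cannot be told from an absent message. Heart muscle genes summed to 2608 rpm in aorta dNdK 2 and to 2606 and 1191 rpm in Rosa26 1 and 2, against 2.04 to 9.21 rpm in the other 3 aorta libraries. The muscle libraries held 170587 to 230734 rpm of 8 muscle fibre genes, and dNdK 3 held 13590 rpm of adipocyte genes, against 472 to 1195 rpm in the other 6. Because such bulk samples sum over all cells, fewer dividing cells and less RNA per dividing cell cannot be told apart in any result that follows.

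Promoter sequences were looked at first, because the CHR and CCAAT letters are what these genes are known to share. Of the 48 genes, 40 had an entry in the RefSeq promoter table (GRCm38.p6), with 42 promoters of 250 bases before and 50 after the gene start. Dlgap5, Cdc25c, Aurkb, Kif20a, Smc4, Foxm1, Ccna2 and Tpx2 were not matched. Printed here, 5′ to 3′ on the gene's strand, are 150 bases before and 30 after the start of 6 genes to which the results return. They are Ccnb2 (chr9:70421525-70421704, minus strand), Cdk1 (chr10:69352883-69353062, minus), Top2a (chr11:99024160-99024339, minus), Mki67 (chr7:135716350-135716529, minus), Mad2l1 (chr6:66535071-66535250, plus) and Aurka (chr2:172370541-172370720, minus). Capitals mark the CHR letters, TTTGAA or TTCGAA, and the CCAAT letters, each read on either strand.
Ccnb2: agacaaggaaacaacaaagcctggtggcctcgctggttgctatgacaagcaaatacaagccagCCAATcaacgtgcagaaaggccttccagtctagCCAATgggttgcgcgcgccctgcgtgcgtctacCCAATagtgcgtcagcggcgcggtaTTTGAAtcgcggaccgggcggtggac
Cdk1: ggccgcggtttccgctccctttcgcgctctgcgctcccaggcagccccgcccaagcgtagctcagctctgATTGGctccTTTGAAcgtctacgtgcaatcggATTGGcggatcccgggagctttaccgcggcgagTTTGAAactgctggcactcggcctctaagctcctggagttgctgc
Top2a: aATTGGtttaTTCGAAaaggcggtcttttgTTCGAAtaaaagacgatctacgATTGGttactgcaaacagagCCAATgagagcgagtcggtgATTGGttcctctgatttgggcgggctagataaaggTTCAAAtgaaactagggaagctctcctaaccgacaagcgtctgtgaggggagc
Mki67: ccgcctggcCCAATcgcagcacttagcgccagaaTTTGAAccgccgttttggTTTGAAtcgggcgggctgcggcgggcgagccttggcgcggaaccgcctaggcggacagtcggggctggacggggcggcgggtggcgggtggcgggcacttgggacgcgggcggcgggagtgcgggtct
Mad2l1: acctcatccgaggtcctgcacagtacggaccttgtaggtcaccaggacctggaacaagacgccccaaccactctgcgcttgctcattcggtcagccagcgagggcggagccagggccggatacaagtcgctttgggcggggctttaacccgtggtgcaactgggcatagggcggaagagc
Aurka: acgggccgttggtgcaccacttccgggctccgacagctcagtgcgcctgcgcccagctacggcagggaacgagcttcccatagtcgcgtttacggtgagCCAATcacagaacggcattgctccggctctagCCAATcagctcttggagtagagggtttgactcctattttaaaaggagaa

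In these windows Ccnb2 held 1 CHR match, which starts 4 bases after the gene start, and 3 CCAAT matches. Cdk1 held 2 CHR and 2 CCAAT matches, Top2a 3 and 4, and Mki67 2 and 1. Aurka held 2 CCAAT matches here and its CHR letters lie outside the printed stretch, 32 bases after the start. Mad2l1 held neither in its full 300 bases.

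Over the whole group, CHR letters were found in 33 of 42 promoters (78.6%), against 19.2% of the 32851 promoters in the table. Within 50 bases of the start they were found in 28 of 42 (66.7%), against 5.31% of all promoters. CCAAT was found in 34 (81.0%), against 37.4%, and both letters together in 30 (71.4%), against 7.52%. The E2F letters TTCGCGC or TTGGCGC, the second of which can overlap CCAAT on the other strand, were in 7 promoters (16.7%), against 3.89%. The forkhead letters TGTTTA were in 6 (14.3%), against 13.4%. The shares thus lay above those of all promoters for the CHR, CCAAT and E2F letters and close to them for the forkhead letters. Birc5, Melk, Mad2l1 and Nusap1 held none of these 4 motifs in their windows.

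**Figure D1:**
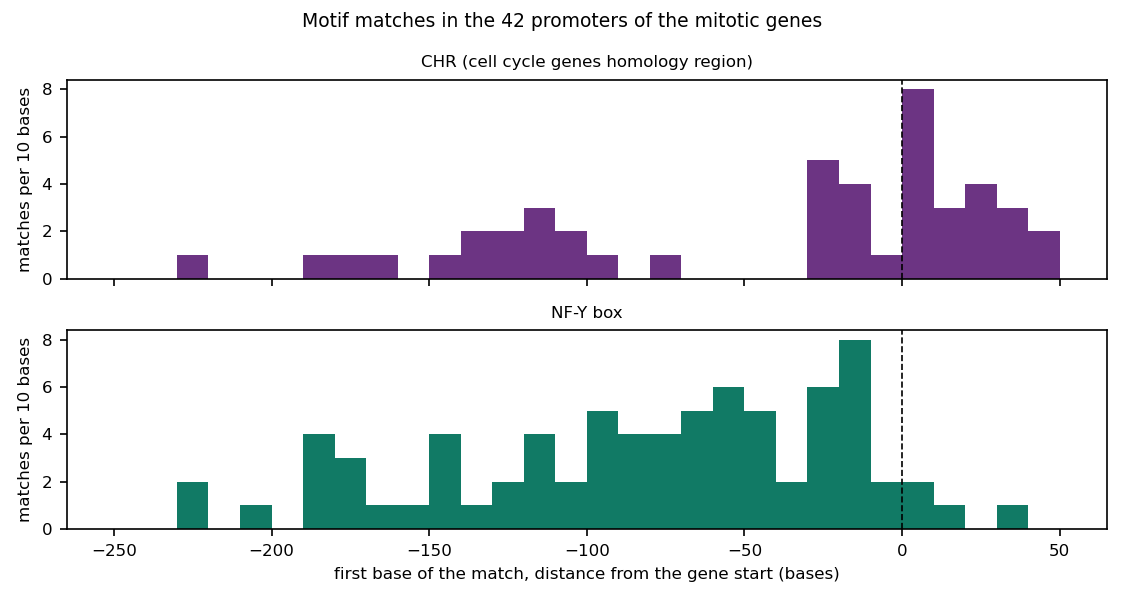
Position of the CHR and CCAAT (NF-Y box) matches in the 42 promoters, as the number of matches in each stretch of 10 bases against the distance of the first base of the match from the gene start (dashed line). CHR matches are most frequent just after the start, and the CCAAT matches lie mostly before it.

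All of these genes were rare in these tissues. Together they took 79.1 to 335 rpm in aorta and 43.0 to 129 rpm in muscle. Only 9 genes had over 3 reads in each of the 13 libraries, 45 had over 3 reads in at least 1, and 3 had so many in none. Cks2, a CDK1-binding subunit, had 0 reads throughout. Ccnb1, cyclin B1, had 3 reads in all, each in aorta dNdK 2, and Cdc25c, a phosphatase that activates CDK1, had 3, each in aorta Rosa26 2. Nusap1, a spindle microtubule gene, had 4 reads in aorta dNdK 2 and 1 in aorta Rosa26 2. An amplicon that reads poorly and a message that is absent cannot be told apart for these genes. Exons of 9 members (Ccna2, Cdc20, Cdc25b, Foxm1, Kif20a, Ncapg, Nusap1, Prc1 and Ube2c) overlap those of another counted gene. What the overlap does to their counts was not tested.

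The summed level of the group was 85.0 and 79.1 rpm in aorta dNdK 1 and 2, against 217, 335, 173 and 79.1 rpm in aorta Rosa26 1 to 4. In muscle it was 129, 51.0 and 52.7 rpm in dNdK 1 to 3, against 51.8, 75.7, 49.9 and 43.0 rpm in Rosa26 1 to 4. In each tissue a single library stood out. Aorta Rosa26 2 was the highest of the 6 aorta libraries for 39 of the 47 genes with reads in aorta, and muscle dNdK 1 the highest of the 7 muscle libraries for 35 of 44. Aorta Rosa26 4 was the lowest of its group for 38 of 46 genes.

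**Figure D2:**
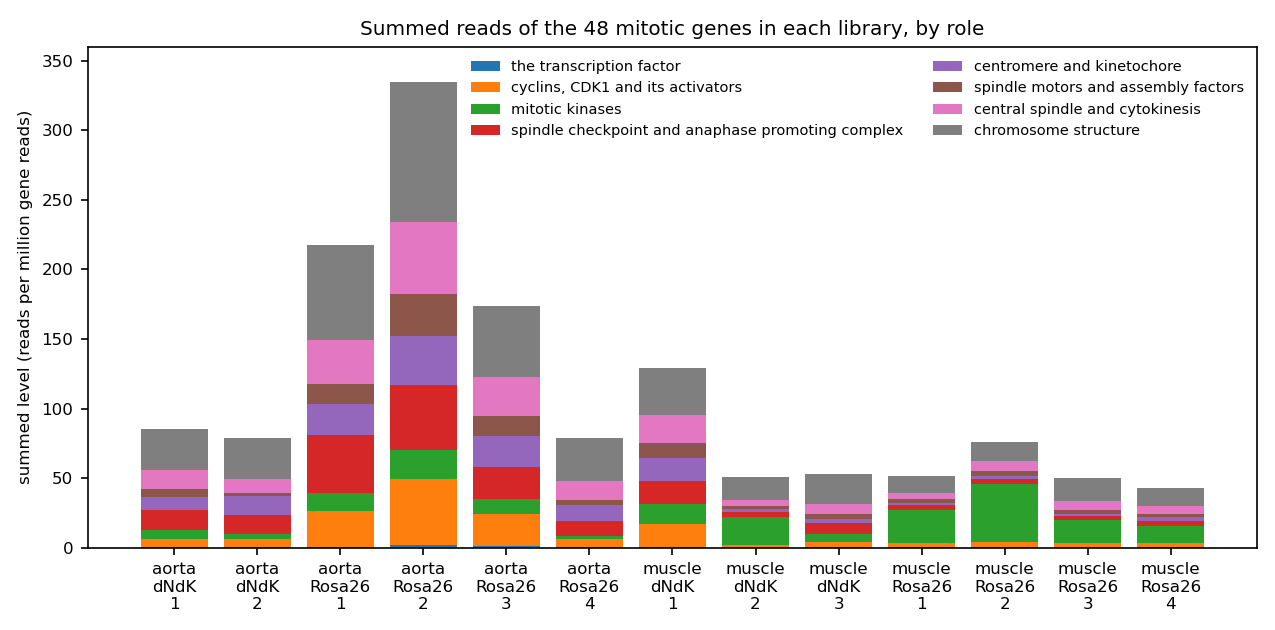
Summed level of the 48 mitotic genes in each of the 13 libraries (rpm), with 1 colour per role. Aorta Rosa26 1, 2 and 3 stand at 173 to 335 and muscle dNdK 1 at 129, while each of the other 9 libraries is at or under 85.0.

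In aorta, the dNdK libraries had lower estimates than Rosa26 for each of the 40 mitotic genes that passed the low count filter, and no single gene passed the test. The median log2 fold change of the 40 was −1.57, against −0.05 over all 11920 genes tested. With edgeR's quasi-likelihood test and Benjamini-Hochberg adjustment, 0 of the 40 were called in either direction, where 0.00839% of all genes were called higher and 0% lower. Lower at an unadjusted p under 0.05 were 14 (background 3.65%), and 0 were higher (background 2.33%). DESeq2 called 1. The groups did not overlap for 12, all lower (background 9.51%, and 7.73% higher). Counting every gene with reads in aorta, 45 of 47 had the lower mean in dNdK. A gene could pass the filter on its Rosa26 reads alone, so these counts describe the genes and do not add to the test. The count lower at an unadjusted p under 0.05 was 8 of 36 tested without Rosa26 2 and 26 of 41 without Rosa26 4. Over all genes these counts were 408 of 11667 and 736 of 11822. Without Rosa26 1 and 2 it was 2 of 21, where 1212 of all 11189 genes were lower at that threshold. Leaving out dNdK 1, dNdK 2 or the 3 libraries with heart RNA left a single dNdK library. The medians there were −1.98, −1.18 and −0.69, against −0.06, −0.07 and −0.04 over all genes.

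Levels of single genes are given as normalised CPM, counts per 1000000 scaled by the TMM factors of all 13 libraries, and compare libraries but not genes, since each gene has its own amplicon. Foxm1 stood at 0.180 and 0.372 in aorta dNdK, against 0.225, 1.35, 0.897 and 0.421 in aorta Rosa26. These levels rest on 7 reads in dNdK and 42 in Rosa26, and the groups overlapped (log2 fold change −1.38, SE 0.96, edgeR adjusted p = 0.763). In muscle Foxm1 stood at 0 to 0.240 in dNdK and 0.0994 to 0.375 in Rosa26, and it was not tested there.

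Among the cyclins and CDK1 genes, 5 of 8 were tested in aorta, with a median of −2.35. Ccnb2, cyclin B2, stood at 0.361 and 0.223 normalised CPM in dNdK, against 1.80, 4.32, 3.18 and 0.841 in Rosa26. Every dNdK library was thus below every Rosa26 library (log2 fold change −3.10, SE 0.84, edgeR adjusted p = 0.757, the lowest that any of the 40 genes had in aorta). These levels rest on 7 reads in dNdK and 151 in Rosa26, and that of Rosa26 4 on counts near the floor. Ccna2, cyclin A2, stood at 1.71 and 0.745 in dNdK, against 6.68, 13.7, 4.56 and 1.68 in Rosa26. Here Rosa26 4 fell between the dNdK libraries (−2.43, SE 0.83). Cdk1, the kinase that drives entry into mitosis, stood at 0.992 and 0.298 in dNdK, against 2.55, 4.15, 2.00 and 0.421 in Rosa26, again with Rosa26 4 between the dNdK libraries (−1.84, SE 0.90). Ccnf and Cdc25b, the other 2 tested, had −2.35 and −1.38.

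The 5 mitotic kinases were all tested, with a median of −1.33 and a wide range. Melk, the maternal embryonic leucine zipper kinase, had 2 reads in dNdK and 42 in Rosa26, a ratio of pooled CPM of 0.0888 with an exact 95% counting interval of 0.0104 to 0.341. Nek2, of the centrosome, had −2.48 (SE 1.34) and Aurkb, of the chromosomal passenger complex, −1.33 (SE 0.94). Aurka, the kinase of the spindle poles, was at 2.07 and 1.41 normalised CPM in dNdK and at 3.00, 3.42, 1.45 and 0.631 in Rosa26. Its groups overlapped throughout (−0.30, SE 0.68, edgeR adjusted p = 0.923), and so did those of Plk1, polo-like kinase 1 (−0.53, SE 0.78, adjusted p = 0.882).

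Genes of the checkpoint and the kinetochore split by size of change. Mad2l1, the checkpoint protein MAD2, stood at 2.25 and 3.28 in dNdK, against 5.18, 6.00, 3.59 and 4.00 in Rosa26, with no overlap (log2 fold change −0.74, SE 0.41). Bub1b, the checkpoint protein BUBR1, stood at 0.721 and 0.596 in dNdK and at 0.841 to 2.97 in Rosa26, again with no overlap (−1.66, SE 0.68). Bub1b had 16 reads in dNdK and 120 in Rosa26, and its level in Rosa26 4 rests on counts near the floor. Its partner kinase Bub1 had 2 reads in dNdK and 37 in Rosa26, a pooled ratio of 0.101 (95% counting interval 0.0118 to 0.391). Birc5, survivin, stood at 0.992 and 0.521 in dNdK, against 4.43, 7.74, 6.76 and 1.47 in Rosa26 (−2.75, SE 0.75). Cenpf, a protein of the outer kinetochore, stood at 0.270 and 0.447 in dNdK, against 1.65, 2.24, 2.28 and 0.841 in Rosa26 (−2.26, SE 0.71). Neither overlapped between the groups, though the level of Cenpf in dNdK rests on 9 reads and that in Rosa26 4 on counts near the floor. Cenpa, the histone that marks the centromere, behaved otherwise, at 5.05 and 8.71 in dNdK and 7.73, 9.26, 4.97 and 6.94 in Rosa26 (−0.05, SE 0.37, edgeR adjusted p = 0.979).

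Of the spindle genes 8 of 9 were tested, with a median of −1.86. Aspm, which focuses spindle poles, stood at 0.180 and 0.149 in dNdK, against 2.03, 1.29, 1.66 and 0.421 in Rosa26 (−2.99, SE 0.88, no overlap). These levels rest on 4 reads in dNdK and 76 in Rosa26. Both dNdK libraries and Rosa26 4 held at most 3 reads, so the order of these libraries rests on counts at the floor. Kif11, the motor that pushes spindle poles apart, had 3 reads in dNdK and 114 in Rosa26, a pooled ratio of 0.0490 (95% counting interval 0.00997 to 0.147). Its level in Rosa26 came mostly from library 2, at 4.88 normalised CPM, and was 0 in Rosa26 4. The other 6 tested had estimates between −2.51 (Ckap2l) and −0.92 (Kif2c).

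All 7 cytokinesis genes were tested in aorta, with a median of −1.47. Racgap1, a GTPase-activating protein of the central spindle, stood at 1.53 and 1.27 in dNdK, against 6.15, 8.81, 3.45 and 1.47 in Rosa26 (−1.82, SE 0.70). Rosa26 4 lay between the dNdK libraries. Its partner motor Kif23 stood at 2.16 and 1.41 in dNdK and at 2.85, 7.80, 3.59 and 4.63 in Rosa26, with no overlap (−1.37, SE 0.55). Kif14, another motor of cytokinesis, had 1 read in dNdK and 43 in Rosa26, a pooled ratio of 0.0433 (95% counting interval 0.00107 to 0.255).

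The 6 chromosome genes held both the smallest p and some of the smallest changes. Top2a, the topoisomerase that untangles sister chromatids, stood at 0.992 and 0.298 in dNdK, against 6.30, 12.6, 6.35 and 1.68 in Rosa26. Its groups did not overlap, and its log2 fold change of −3.38 (SE 0.88) had an unadjusted p of 0.00483 in the edgeR test. DESeq2 called it, with an adjusted p of 0.0243, the only member so called. Ncapg, a condensin subunit, stood at 0.361 and 0.149 in dNdK, against 1.43, 2.58, 1.79 and 0.631 in Rosa26 (−2.65, SE 0.84, no overlap). It had 6 reads in dNdK, and Rosa26 4 held at most 3, so its lack of overlap also rests on counts near the floor. Mki67, which coats mitotic chromosomes, stood at 1.89 and 1.79 in dNdK, against 7.28, 12.2, 2.55 and 0.421 in Rosa26, so that Rosa26 4 was below both dNdK libraries (−1.60, SE 0.99). The remaining condensin genes had estimates nearer to 0, with Smc4 at −0.87, Ncapd2 at −0.30 and Smc2 at −0.28, and their groups overlapped.

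**Figure D3:**
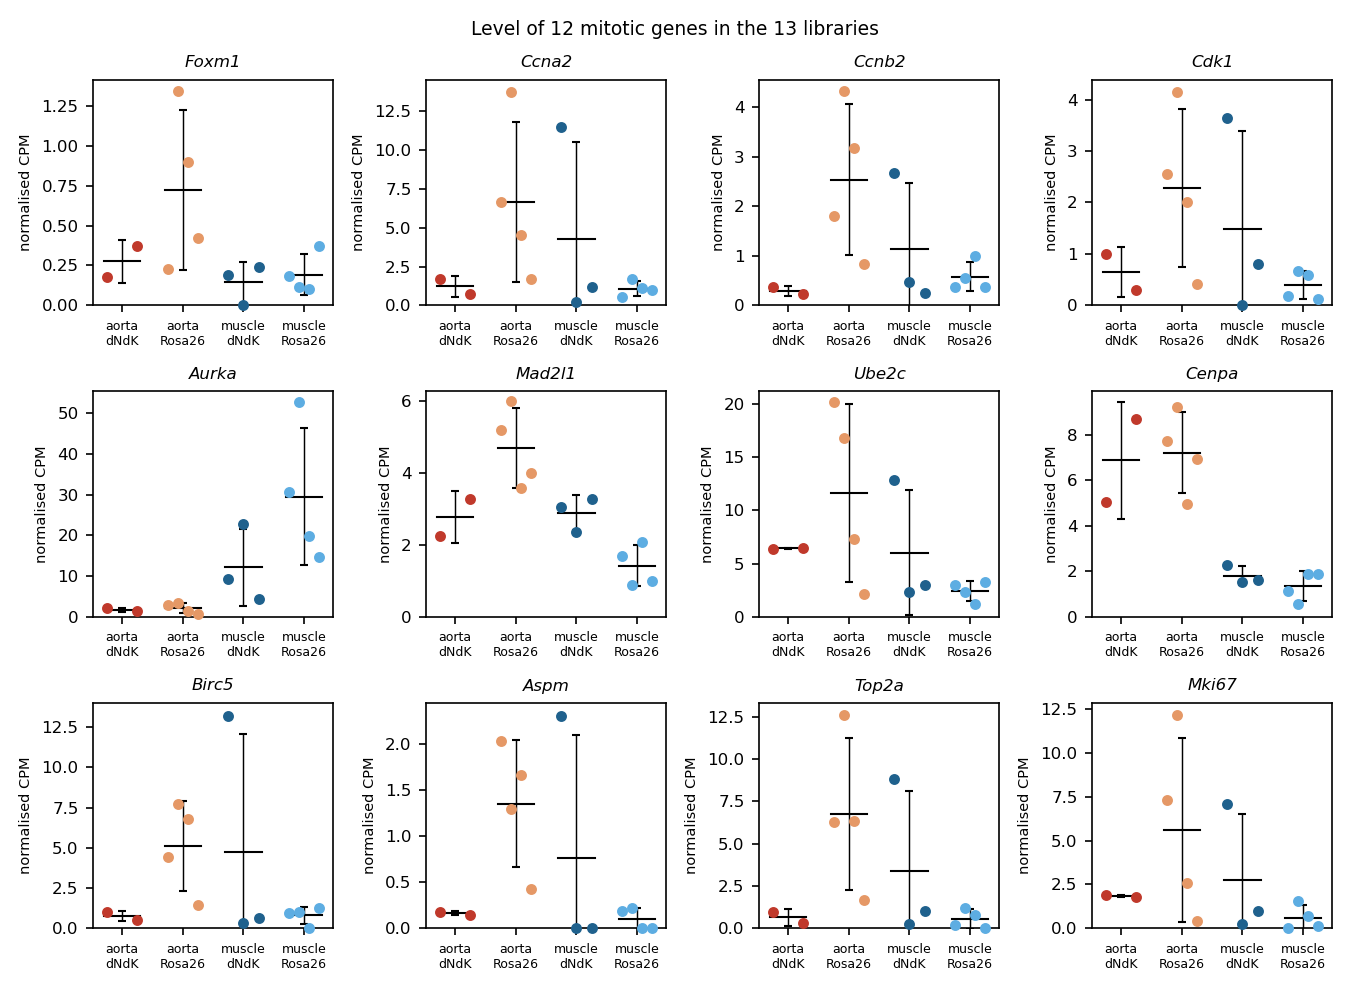
Normalised CPM of 12 mitotic genes in each library (points), with the mean (line) and SD (bar) of each group of 2 dNdK and 4 Rosa26 aortas and 3 dNdK and 4 Rosa26 muscles. Each panel has its own scale. In aorta, Ccnb2, Birc5, Aspm, Mad2l1 and Top2a are lower in both dNdK libraries than in all 4 Rosa26 libraries, and Cenpa is not. For Aspm the dNdK libraries and Rosa26 4 each held at most 3 reads, and for Ccnb2 the level in Rosa26 4 rests on counts near the floor. In muscle the single high points of Ccna2, Ccnb2, Cdk1, Ube2c, Birc5, Aspm, Top2a and Mki67 belong to dNdK 1.

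Markers of lymphocytes, macrophages and endothelium were also lower in aorta dNdK by their estimates. The 14 B and plasma cell genes summed to 96.1 and 41.6 rpm in dNdK 1 and 2, against 286, 843, 269 and 16.6 rpm in Rosa26 1 to 4. The 15 T and NK cell genes summed to 29.7 and 23.2 rpm in dNdK, against 146, 250, 53.6 and 12.8 rpm in Rosa26. In both lists all tested genes had lower estimates in dNdK (12 of 12 with a median of −3.34, and 13 of 13 with a median of −2.14). The 12 macrophage genes summed to 358 and 286 rpm in dNdK, against 818, 819, 664 and 354 rpm in Rosa26, with 10 of 10 tested lower (median −0.77), and all 7 endothelial genes tested were lower (median −0.57). No gene of these 4 lists passed the edgeR test. Rosa26 4 was the lowest aorta library in both lymphocyte lists, with Blk at 0, and it was the lowest of the Rosa26 libraries in the mitotic sum. Cd79a, of the B cell list, stood at or near 0 in all libraries. Rag1 and Dntt, genes of lymphocyte precursors, were at 8.18 and 12.0 normalised CPM in Rosa26 1 and at 2.58 and 2.97 in Rosa26 2, and at 0 in the other 4 aorta libraries. Their part in the mitotic result was not tested. Without Rosa26 1 and 2 the median of the mitotic genes was −0.41 (16 lower and 5 higher of 21 tested), and Mki67 turned to 0.18. Without the 3 libraries with heart RNA it was −0.69 (31 lower of 37), and Mki67 turned to 0.26.

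In muscle, most mitotic genes had higher estimates in dNdK, many of them through dNdK 1, and no gene passed the test. Of the 16 genes tested, 13 had higher and 3 lower estimates in dNdK than in Rosa26, with a median log2 fold change of 0.67, against 0.03 over all 10491 genes. The edgeR test called 0 in either direction, where 0% of all genes were called higher and 0% lower, as did DESeq2, and at an unadjusted p under 0.05 1 was higher (background 5.43%) and 0 lower (background 2.12%). These counts were 9 higher and 1 lower of 20 tested without dNdK 2, 0 and 0 of 16 without dNdK 1, and 5 and 1 of 44 with no filter. Over all genes they were 964 and 481 of 10778, 705 and 256 of 10714, and 820 and 330 of 16011. Without dNdK 1 the median was 0.18, with 10 higher and 6 lower of 16. Over all genes with reads in muscle, 40 of 44 had the higher mean in dNdK.

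Mad2l1 was higher in every muscle dNdK library. It stood at 3.06, 2.35 and 3.28 normalised CPM in muscle dNdK 1 to 3, against 1.68, 0.895, 2.09 and 1.00 in Rosa26 1 to 4. All 3 dNdK libraries lay above all 4 Rosa26 libraries, the only mitotic gene of which this held (background 2.72%), and 0 of those tested lay below in all (background 3.27%). Its level was 2.08-fold that of Rosa26 (1.06 on the log2 scale, SE 0.45), with an unadjusted p of 0.0426 and an adjusted p of 0.656 in the edgeR test. It was not called under any of the 15 alternatives tried, and its estimate stayed between 0.88 and 1.32.

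Several other muscle genes were high in dNdK 1 alone. Top2a stood at 8.80, 0.235 and 1.04 in dNdK 1 to 3, against 0.187, 1.23, 0.795 and 0 in Rosa26 (log2 fold change 2.47, SE 1.20, edgeR adjusted p = 0.662). Ccna2 stood at 11.5, 0.235 and 1.20 in dNdK, against 0.560, 1.68, 1.09 and 1.00 in Rosa26 (1.94, SE 1.02, adjusted p = 0.689), and its estimate was −0.56 without dNdK 1. Birc5 was at 13.2 in dNdK 1 and at 0.352 and 0.640 in dNdK 2 and 3, against 0 to 1.25 in Rosa26. Ube2c, the ubiquitin carrier of the anaphase promoting complex, stood at 12.8, 2.35 and 2.96 in dNdK, against 2.99, 2.35, 1.19 and 3.25 in Rosa26 (1.32, SE 0.65, adjusted p = 0.663). Exons of Ube2c overlap those of Tnnc2, a troponin gene of fast muscle fibres, on the other strand, and the counts used do not tell strands apart. Whether this overlap raises or lowers the count of Ube2c was not tested. Kif23 and Racgap1 had 1.06 and 0.99, and Racgap1 was at −0.0045 without dNdK 1. Anln, a scaffold of the cleavage furrow, was instead highest in dNdK 2, at 0.574, 3.05 and 1.28 in dNdK 1 to 3, against 0.373, 2.01, 1.49 and 0.625 in Rosa26 (0.53), and turned to −0.23 without dNdK 2.

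Condensin genes were more even across muscle libraries. Smc2 stood at 2.87, 1.17 and 2.80 in dNdK, against 1.12, 1.12, 1.29 and 1.38 in Rosa26 (0.91, SE 0.47, edgeR adjusted p = 0.684). Smc4 stood at 14.5, 6.92 and 10.0 in dNdK, against 5.79, 7.60, 9.55 and 6.00 in Rosa26 (0.55, SE 0.34, adjusted p = 0.731), while Ncapd2 had 0.04. Both Smc2 and Smc4 were higher in dNdK 1 and 3 than in any Rosa26 library. The 3 genes with lower estimates were Cdc25b (−0.11), Tpx2 (−0.21) and Aurka.

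Aurka differed from the rest of the group in muscle. It stood at 9.38, 22.8 and 4.48 in dNdK 1 to 3, against 30.6, 52.7, 19.8 and 14.8 in Rosa26 1 to 4, where it made up the largest share of the group's reads. Its groups overlapped through dNdK 2 (log2 fold change −1.26, SE 0.59, edgeR adjusted p = 0.657). Without Aurka the summed level of the group was 122, 32.8 and 48.6 rpm in muscle dNdK, against 29.7, 35.6, 34.7 and 32.0 rpm in Rosa26.

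Markers of antibody-producing cells were also high in muscle dNdK 1. The B and plasma cell genes summed to 145, 4.98 and 18.3 rpm in dNdK 1 to 3, against 6.19, 26.7, 3.73 and 3.08 rpm in Rosa26, and 7 of 7 tested had higher estimates in dNdK (median 1.81). Jchain and Mzb1, of plasma cells, stood at 73.1 and 45.9 normalised CPM in dNdK 1. The T and NK cell genes summed to 19.0, 1.97 and 14.0 rpm in dNdK and 1.40 to 7.57 rpm in Rosa26. Genes of satellite cells, the stem cells of muscle, summed to 153, 77.5 and 97.2 rpm in dNdK, against 138, 96.7, 127 and 124 rpm in Rosa26. What part these cells had in the mitotic values was not tested.

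**Figure D4:**
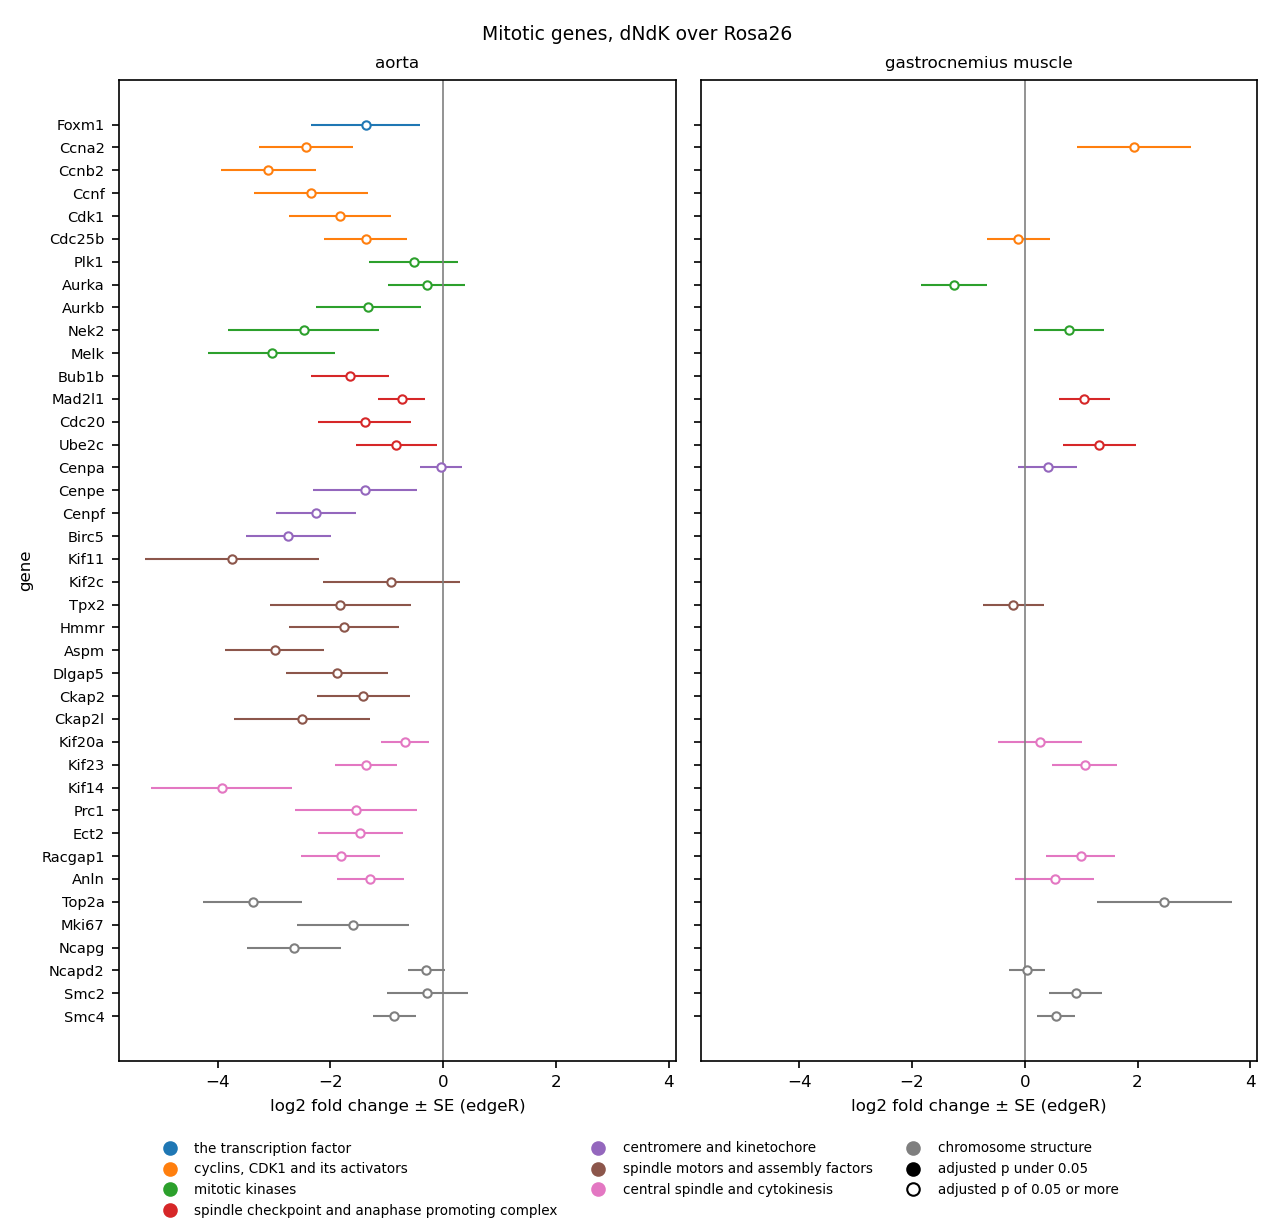
Log2 fold change of dNdK over Rosa26 with its SE (edgeR) for each mitotic gene tested, in aorta (left, 40 genes) and muscle (right, 16 genes), coloured by role. Open circles mark an adjusted p of 0.05 or more, which holds for every gene shown. All estimates lie left of 0 in aorta and 13 of 16 lie right of 0 in muscle.

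The 2 tissues share no library, and the difference between their genotype effects was tested in a fit of all 13, which took the libraries as independent. Of 41 genes tested, 40 had a lower estimate in aorta than in muscle, Aurka being the exception at 0.94 (SE 0.92). Their median difference in log2 fold change was −2.73, against −0.10 over all 12318 genes, and it was the same with Bub1, the 1 gene with a group at 0 reads, at its bound. The edgeR test called 0 in either direction (0% of all genes higher, 0% lower), and so did DESeq2. At an unadjusted p under 0.05 20 were lower (background 6.56%) and 0 higher (background 1.92%). Those 20 shared an adjusted p of 0.583. Among them were Top2a (−5.82, SE 1.78), Ccna2 (−4.33, SE 1.53), Ccnb2 (−3.90, SE 1.30), Racgap1 (−2.78, SE 0.97), Kif23 (−2.40, SE 0.82), Mad2l1 (−1.76, SE 0.59) and Smc4 (−1.39, SE 0.52). The median was −1.72 without muscle dNdK 1 and −1.86 without aorta Rosa26 1 and 2. Lower at an unadjusted p under 0.05 in these settings were 6 of 41 and 7 of 35 genes tested. Over all genes 725 of 12283 and 918 of 12016 were. Leaving out aorta dNdK 1 or 2 left a single aorta dNdK library, with medians of −3.68 and −2.30.

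Between the tissues of the Rosa26 mice, most mitotic genes tested were higher in aorta, with Aurka as the opposite case. Of 23 genes tested, 15 were higher and 1 lower in aorta than in muscle at an edgeR adjusted p under 0.05, where 31% of all 11058 genes were called higher and 27.5% lower. The median log2 fold change was 1.83, against 0.08 over all genes. The genes had to pass the filter, which aorta reads alone could do, and of all 46 with reads in these libraries 44 had the higher mean in aorta. Their groups did not overlap for 15 genes that were higher in aorta, 10 of them tested (background 26.9%), and for Aurka, which was lower (background 26%). The number called higher was 7 of 23 without aorta Rosa26 1 and 2, the 2 libraries with Rag1 and Dntt reads. Of all genes 2944 of 11347 were called higher in that setting. The number was 27 of 46 without a filter, 30 of 37 without aorta Rosa26 4 and 23 of 37 without muscle Rosa26 3. Over all genes it was 3566 of 16620, 3389 of 11411 and 3155 of 11462 in these settings. Numbers in the deposited names are shared by 3 pairs of Rosa26 aorta and muscle libraries, which may come from the same mice, though the labels do not say so. Deviations from the group means correlated at r = 0.26, 0.29 and 0.24 in these pairs. Pairs without a shared number lay between −0.33 and 0.30, so the correlations do not show which libraries share a mouse. With the numbers in the deposited names as a block 10 of 23 genes were called higher and 1 lower. Of all 11058 genes 3123 were called higher and 3063 lower with this block.

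Cenpf and Cenpa had the smallest p of the genes higher in aorta. Cenpa stood at 7.73, 9.26, 4.97 and 6.94 normalised CPM in aorta Rosa26, against 1.12, 0.559, 1.89 and 1.88 in muscle Rosa26, a 5.21-fold difference (2.38 on the log2 scale, SE 0.42, edgeR adjusted p = 0.00072). Cenpf had 99 reads in aorta and 3 in muscle, a pooled ratio of 39.5 (95% counting interval 13.1 to 195, adjusted p = 0.000288). Kif23 stood at 2.85, 7.80, 3.59 and 4.63 in aorta, against 1.12, 1.12, 0.895 and 1.50 in muscle (2.02, SE 0.42, adjusted p = 0.00197), and Mad2l1 at 3.59 to 6.00 in aorta, against 0.895 to 2.09 in muscle (1.73, SE 0.38, adjusted p = 0.0031). These 4 were called in every alternative that tested them. Top2a was 11.4-fold higher (SE 0.79 on the log2 scale, adjusted p = 0.00326), Bub1b 9.76-fold, Birc5 6.66-fold, Ccna2 and Cdc20, an activator of the anaphase promoting complex, 6.04-fold each, and Smc4 2.29-fold, all without overlap. Mki67 (8.77-fold), Ube2c (4.83-fold), Ccnb2 (4.33-fold), Racgap1 (3.56-fold) and Cdc25b (3.54-fold) were called higher though 1 or more aorta libraries overlapped with muscle. Bub1 had 37 reads in aorta and 0 in muscle, at least 14.8-fold higher against a floor of 3 reads over the group, and was not tested.

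Aurka stood at 3.00, 3.42, 1.45 and 0.631 in aorta Rosa26, against 30.6, 52.7, 19.8 and 14.8 in muscle Rosa26. The lowest muscle library was above the highest aorta library (log2 fold change −3.70, SE 0.52, 0.0771-fold, edgeR adjusted p = 0.000157), and the call held in all 18 alternatives. Tpx2, the activator of Aurora A on the spindle, was the other gene with a lower estimate, at 1.88, 2.58, 0.414 and 0.841 in aorta and 2.99, 2.91, 1.39 and 0.875 in muscle, with groups that overlapped (−0.45, SE 0.59, adjusted p = 0.538). Genes that did not pass included Ncapd2 (0.37), Ccnf (0.27) and Nek2 (0.90).

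Between the tissues of the dNdK mice a single mitotic gene, Cenpa, passed the test. Of 24 genes tested 1 was called higher in aorta and 0 lower by edgeR, where 5.22% of all 11426 genes were called higher and 10.5% lower. DESeq2 called 1 in each direction, and at an unadjusted p under 0.05 edgeR had 1 higher (background 15.1%) and 1 lower (background 19.9%). The median was −0.44, against −0.01 over all genes, with 19 estimates lower and 5 higher, but with library size alone as the scaling it was 0.21, with 11 lower and 13 higher, while the median of all genes moved to 0.58. Without muscle dNdK 1 it was 0.36. Cenpa was the gene called, at 5.05 and 8.71 in aorta and 2.30, 1.52 and 1.60 in muscle, a 3.93-fold difference without overlap (1.97 on the log2 scale, SE 0.47, edgeR adjusted p = 0.0400). Its call was lost on leaving out any 1 library other than muscle dNdK 1. Aurka was at 2.07 and 1.41 in aorta, against 9.38, 22.8 and 4.48 in muscle, with no overlap (−2.77, SE 0.78, adjusted p = 0.0598). Nek2 (−2.38, SE 1.03, adjusted p = 0.156) and Tpx2 (−2.06, SE 1.20, adjusted p = 0.267) were also lower in both aorta libraries than in all muscle libraries (background 30.2% lower without overlap, 27.5% higher), while Top2a (−2.31, SE 1.52), Birc5 (−2.58, SE 1.64) and Ccna2 (−1.74, SE 1.48) overlapped.

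**Figure D5:**
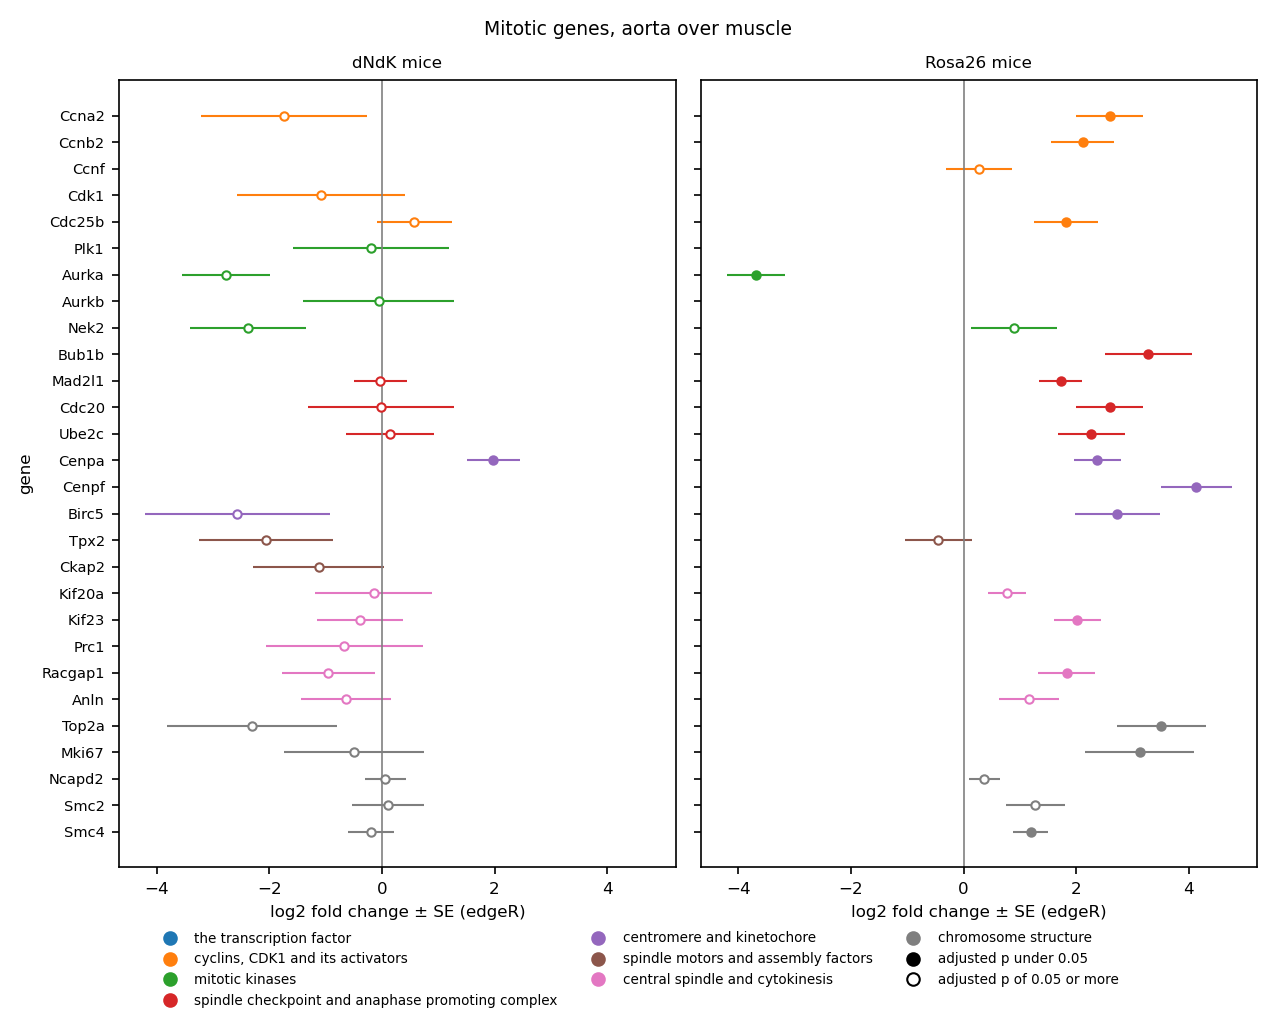
Log2 fold change of aorta over muscle with its SE (edgeR) for each mitotic gene tested, in dNdK mice (left, 24 genes) and Rosa26 mice (right, 23 genes), coloured by role. Filled circles mark an adjusted p under 0.05. In Rosa26 mice 15 genes are filled right of 0 and Aurka is filled left of 0, and in dNdK mice Cenpa alone is filled. The balance of the dNdK panel shifts from 19 estimates left of 0 to 11 when libraries are scaled by size alone.

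Neighbouring parts of the cell cycle were read for comparison, in lists chosen with these data known. In aorta 44 other mitotic genes gave 32 tested, 27 of them lower in dNdK, with a median of −1.09, and none was called. Esco2, which joins sister chromatids, stood at 0.0901 and 0.0745 normalised CPM in dNdK, against 1.88, 1.18, 1.17 and 1.26 in Rosa26 (log2 fold change −3.89, SE 0.82, edgeR adjusted p = 0.757). Hjurp, the chaperone that loads CENP-A at centromeres, ran the other way, at 35.2 and 9.68 in dNdK, against 3.53, 5.61, 6.01 and 3.78 in Rosa26 (2.26, SE 0.49, adjusted p = 0.757). In muscle Hjurp varied as widely inside the groups, at 2.11, 4.11 and 15.3 in dNdK and 1.68, 16.7, 0.497 and 1.00 in Rosa26.

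Of 33 DNA replication genes tested in aorta 28 had lower estimates in dNdK (median −0.49). The genes of the MuvB complex, the E2F factors and G1 phase had a median of −0.17 over 24 tested, with Ccnd1 and Ccnd2, cyclins of G1, at −1.12 (SE 0.33) and −1.11 (SE 0.29). The subunits and regulators of the anaphase promoting complex had 0.02 over 17, and the CDK inhibitors −0.03 over 7, with Cdkn1a at 0.74 (SE 0.25) and Cdkn2b at 1.16 (SE 0.58). None of these genes passed the edgeR test (adjusted p = 0.757 for each one named). In muscle the medians of these 5 lists lay between −0.10 and 0.43, and 0 genes were called.

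Between the tissues of the Rosa26 mice these lists split. Of the other mitotic genes 6 were called higher and 1 lower in aorta out of 18, with Sgo2a, a guardian of centromere cohesion, at 3.07 (SE 0.49, edgeR adjusted p = 0.000414). Of the anaphase promoting complex 0 of 17 were called higher and 4 lower, with Anapc5, a scaffold subunit, at −3.11 (SE 0.25, adjusted p = 3.02e-06). Of the MuvB, E2F and G1 list 10 were higher and 6 lower out of 23, with the G1 kinase Cdk6 at 4.10 (SE 0.38, adjusted p = 8.88e-06) and the repressor E2f6 at −2.84 (SE 0.22, adjusted p = 2.69e-06). Of the DNA replication genes 10 were higher and 6 lower out of 31, Rpa2, a single-strand DNA binding subunit, being at −2.53 (SE 0.26, adjusted p = 1.68e-05). All are read against the 31% and 27.5% of all genes called in this comparison.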

How the data were processed

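Amplicon libraries (AmpliSeq mouse transcriptome panel, 10 ng of total RNA, 12 cycles, Ion Torrent) were sequenced from aorta and gastrocnemius muscle, per the labels' protocols. The deposited tables hold raw gene counts, made by the authors with STAR 2.5.2b on mm10 (GRCm38.p6), per the submitters' processing notes, which also name edgeR 3.28.1 and limma 3.42.2. The column of counts on either strand was used. The libraries carry no molecular identifiers, so counting intervals and the floor of 3 counts (0.219 to 0.765 CPM) cover counting error only.

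Counts were analysed in R 4.3.3 with edgeR 4.0.16. In each comparison the filter was filterByExpr (min.count 10, min.total.count 15) and the scaling TMM. Genes were tested with the quasi-likelihood test, with Benjamini-Hochberg adjustment over all genes tested and a threshold of 0.05. The SE is the size of the log2 fold change divided by the square root of F. Normalised CPM uses the TMM factors of all 13 libraries, while sums in rpm and pooled ratios are unscaled. DESeq2 1.42.0, other scalings, strands, filters, blocks and left-out libraries were tried. The pipeline was tested on simulated data in which a small part of the genes was changed. Of genes changed 4-fold it called 36.4% in aorta, 58.6% in muscle and 79.4% between the Rosa26 tissues. It called 0% of them between the dNdK tissues and 1.02% in the difference between the tissues. Of genes changed 2-fold it called 0% to 13%. A lack of calls therefore does not show a lack of change.

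Named were Foxm1, Ccnb1, Mki67, Cdk1 and, in each comparison, the members past the threshold (at most 20), or the 12 of smallest p if under 5 passed, plus up to 3 genes of each other pathway list. Other genes, named for their contrast with these, were chosen after seeing their values. The members and lists were chosen with earlier results of these data known. The labels do not say that libraries of a group came from separate animals, so p-values measure the spread between these libraries. The labels do not say whether the numbers in the titles pair the libraries, and the tissues were taken as independent. Numbers in the deposited names may mark mice that gave both tissues, in which case p-values between tissues, and of the fit of all 13 libraries, rest on an assumption that does not hold.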

Additional observations from a re-analysis of the deposited data

Results flagged for a closer look

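Nek2 in muscle Rosa26 1 stood apart from the rest of its group, at 2.24 normalised CPM, against 0.895, 0.795 and 0.625 in Rosa26 2, 3 and 4. It was the 1 such library among 54 groups of 4 libraries looked at, where chance gives about 1 in 20.

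Mad2l1 had estimates of opposite sign in the 2 tissues. Both aorta dNdK libraries (2.25 and 3.28 normalised CPM) were below all 4 aorta Rosa26 libraries (3.59 to 6.00). All 3 muscle dNdK libraries (2.35 to 3.28) were above all 4 muscle Rosa26 libraries (0.895 to 2.09). Of all genes tested 9.51% were lower without overlap in aorta and 2.72% higher without overlap in muscle. The log2 fold change in aorta minus that in muscle was −1.76 (SE 0.59). This difference had an unadjusted p of 0.0101 in the edgeR test and did not pass after adjustment over all genes (adjusted p = 0.583).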

How the results depend on the processing

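In aorta, dNdK over Rosa26, DESeq2 called 1 of 47 genes lower and the replicate block 1 of 40 (Top2a in each). Over all genes DESeq2 called 8 of 16527 lower and the replicate block 144 of 11920. The median was −0.41 without Rosa26 1 and 2. Mki67 turned to 0.182 there and to 0.264 without the 3 libraries with heart RNA. Leaving out 1 library gave medians of −1.98 to −1.18. In muscle the median was 1.21 with no filter, 1.31 with DESeq2, 1.04 with all 13 libraries in 1 fit and 0.25 with the first strand, and 0.18 to 0.99 with 1 library left out. With 1 library left out Ccna2 lay at −0.56 (without dNdK 1) to 2.51, Racgap1 at −0.0045 (without dNdK 1) to 1.35 and Anln at −0.23 (without dNdK 2) to 0.94.

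For aorta over muscle in Rosa26, genes called higher numbered 27 of 46 with no filter, 27 of 46 with DESeq2 and 7 of 11 with the second strand. Over all genes it was 3566 of 16620, 3756 of 16620 and 2794 of 10238. The mitotic genes called higher numbered 7 of 23 without aorta Rosa26 1 and 2, where 2944 of all 11347 genes were called higher. With 1 library left out they numbered 13 to 30, where 3155 to 3389 of all genes were called higher. The median was 2.74 with library size only, where that of all genes moved to 0.96. It was 1.00 without aorta Rosa26 1 and 2 and 1.59 to 2.39 with 1 library left out. In dNdK, 1 gene was called lower with no filter and with DESeq2, 0 were called higher with the second strand, and with 1 library left out 0 to 1 were called higher and 0 to 1 lower, at medians of −0.98 to 0.36. Mki67 turned to 0.17 with library size only. With 1 library left out Mki67 lay at −1.06 to 1.59, Ccna2 at −2.47 to 0.74 and Racgap1 at −1.32 to 0.038 (the highest of each without muscle dNdK 1), Cdc25b at −0.043 (without aorta dNdK 2) to 1.06 and Anln at −0.99 to 0.12 (without muscle dNdK 2). The difference between the tissues had medians of −3.68 to −1.72 with 1 library left out and −1.86 without aorta Rosa26 1 and 2. With only the 250 bases before the start, the CHR share was 45.2%, that near the start 21.4% and that of CHR with CCAAT 42.9%.

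The labels do not say whether the numbers in the titles pair the libraries. Same-numbered libraries correlated at −0.35 and 0.19 in aorta and at 0.21, −0.04 and −0.01 in muscle. Between the tissues of Rosa26 mice they correlated at −0.29, 0.30, −0.30 and 0.24. These values cannot decide the pairing, and the 2 aorta dNdK libraries deviate from their mean in exactly opposite ways. With the replicate block on the title numbers, medians were −2.05 in aorta and 0.61 in muscle. They were 1.75 between Rosa26 tissues (15 higher, 1 lower) and −0.26 between dNdK tissues (0 higher, 1 lower, Mki67 at 0.033). Numbers in the deposited names are shared by 4 aorta and muscle pairs, which correlated at 0.24 to 0.29 in Rosa26 and 0.16 in dNdK. Pairs without a shared number reached 0.30 in Rosa26 and 0.14 in dNdK, so these correlations do not show which libraries share a mouse. A block on the numbers in the deposited names called 10 of 23 genes higher in Rosa26, where 3123 of all 11058 were called higher. The cause of these shifts was not tested. With few reads, counting error limits genes such as Melk or Kif14, whose counting intervals are wide.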
